A study of Mus musculus with 36 samples.

Results

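The H3K27ac peak lists of the hippocampus of CKp25 mice and their CK control littermates were compared at 2 and 6 weeks after p25 was induced. The 4 lists were those that the labels assign to H3K27ac, 1 per group, and held 625288 peaks, 14.3% of the 4381147 peaks in the 28 histone mark lists of the series. The CKp25 groups were adult female double-transgenic CK-p25 mice in which the transgene had been switched on. The CK groups were littermates of the same sex, and which transgenes they carried is not stated in the labels. The labels give the age as 3 months at both times, without saying whether this was the age at induction or at collection. p25 is a truncated activator of the kinase Cdk5, and in this model a forebrain neuron promoter drives it, so that glia do not express it, and neurons are then lost. The groups are called CK 2wk, CKp25 2wk, CK 6wk and CKp25 6wk below. Chromatin of flash-frozen hippocampus was crosslinked with formaldehyde, sonicated, immunoprecipitated with an antibody to acetylated lysine 27 of histone H3 and sequenced as 36-base single-end reads. Neither the labels nor the lists tell if several animals were pooled, and a peak list cannot be checked for the tissue's marker transcripts.

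Acetylation of H3 lysine 27 is laid down by the acetyltransferases CBP and p300 on nucleosomes flanking active promoters and active enhancers. H3K4me3 marks promoters, and H3K4me1 marks enhancers and the flanks of promoters, so the 3 marks read together separate promoter-like from enhancer-like acetylation. Long runs of acetylated chromatin, often called stretch enhancers or super-enhancers, are typical of genes that define a cell type. Lysine 27 cannot be acetylated and trimethylated on the same histone tail, and H3K27me3 is the mark of Polycomb repression.

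With 1 list per group, no difference between genotypes can be tested against replicate error, and no p-value is given for one. CK 2wk against CK 6wk served as a background for how far lists of 1 genotype differ between times, although time cannot be told apart from age or from a batch that the samples of 1 time may share. The depth of the sequencing behind the lists is unknown here, and the number, width and strength of called peaks all depend on it. All values are from whole hippocampus, in which fewer cells of a type and less acetylation per cell cannot be told apart. Strong peaks are those with a −log10 p of at least 5. Fold enrichment over the whole cell extract of the same group and −log10 p are the authors' own values. They rank and filter peaks inside 1 list. Where they are printed side by side for several lists they describe each list's own peak, since a higher value in 1 list can come from its depth and does not show more of the mark. Intervals at the 95% level (Wilson) of shares cover counting error alone, and neighbouring peaks are not independent.

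The CKp25 lists held more strong H3K27ac peaks than the CK lists at both times, by a small margin at 2 weeks and a larger one at 6 weeks. CK 2wk held 98322 strong peaks and CKp25 2wk held 101979, a ratio of 1.04. CK 6wk held 88748 and CKp25 6wk held 103637, a ratio of 1.17. CK 6wk was the shortest list at every threshold, and its ratio to CK 2wk was 0.903, so the 2 control lists were further apart than the genotypes were at 2 weeks. The CKp25 lists of the 2 times differed by a ratio of 1.02. The gap at 6 weeks is therefore one between a short CK list and a CKp25 list of much the same length as that of 2 weeks.

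Counts of all deposited peaks, which reached down to a −log10 p of 2, gave another order at 2 weeks. CK 2wk held 163697 peaks and CKp25 2wk held 158435, a difference of −5262 for CKp25 minus CK. CK 6wk held 142710 and CKp25 6wk held 160446, a difference of 17736. Strong peaks made up 60.1% of CK 2wk (interval 59.8 to 60.3), 64.4% of CKp25 2wk (64.1 to 64.6), 62.2% of CK 6wk (61.9 to 62.4) and 64.6% of CKp25 6wk (64.4 to 64.8). The share was higher in CKp25 at both times. At a −log10 p of at least 10 the lists held 36633, 37750, 31022 and 34909 peaks in the order CK 2wk, CKp25 2wk, CK 6wk and CKp25 6wk. At 20 or more they held 15254, 15538, 12981 and 14607.

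**Figure D1:**
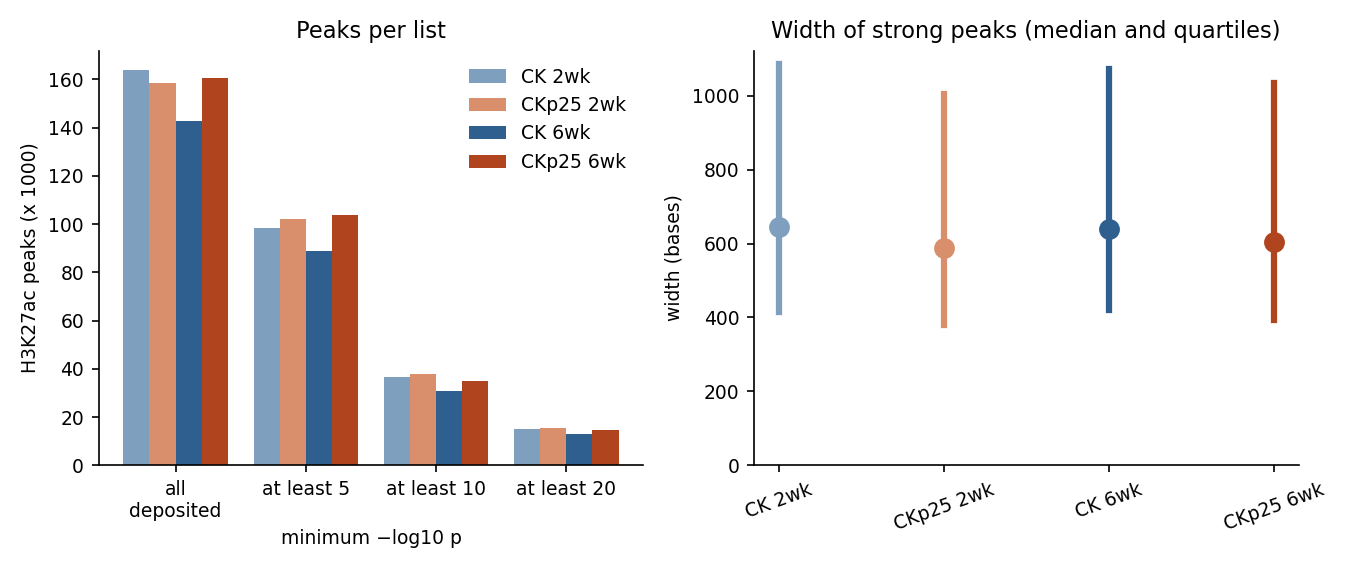
Left, the number of H3K27ac peaks (bars, in units of 1000) in each list, for all deposited peaks and for peaks with a −log10 p of at least 5, 10 and 20. Right, the median (point) and quartiles (line) of the width of strong peaks in bases. CK 6wk is the lowest bar of each set, and the medians of both CKp25 lists, 587 and 604 bases, lie below those of the CK lists, 644 and 640 bases.

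Strong H3K27ac peaks were narrower in CKp25 at both times. The median width was 644 bases in CK 2wk and 587 in CKp25 2wk, a difference of −57 bases. It was 640 bases in CK 6wk and 604 in CKp25 6wk, a difference of −36 bases, while CK 6wk minus CK 2wk was −4 bases. The narrowest peak of each list, which is set by the peak calling, moved the same way: 254 bases in CK 2wk, 240 in CKp25 2wk, 270 in CK 6wk and 254 in CKp25 6wk. The part of that setting in the medians was not tested. At 6 weeks the order depended on strength: among the 20000 strongest peaks the median was 1344 bases in CK 6wk and 1420 in CKp25 6wk. At 2 weeks it was 1415 in CK and 1372 in CKp25.

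The bases under strong peaks differed in opposite directions at the 2 times. Strong peaks covered 88.2 Mb in CK 2wk and 84.7 Mb in CKp25 2wk, a ratio of 0.961, the CKp25 peaks being more numerous and shorter. They covered 78.4 Mb in CK 6wk and 88.9 Mb in CKp25 6wk, a ratio of 1.13. Peaks of 2 kb or more numbered 7312 in CK 2wk and 6476 in CKp25 2wk, and 6143 in CK 6wk and 7178 in CKp25 6wk. Peaks of 5 kb or more numbered 425 and 373 at 2 weeks, and 320 and 373 at 6 weeks. Such long peaks were few, but peaks of 2 kb or more held 24.7, 22.4, 23.0 and 23.8% of the strong bases in the order CK 2wk, CKp25 2wk, CK 6wk and CKp25 6wk.

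The longest peaks lay at different places in the 4 lists. The longest was 15840 bases in CK 2wk (chr8:123072894-123088733, mm9) and 13885 bases in CK 6wk (chr19:5839588-5853472). In CKp25 6wk it was 13482 bases (chr17:10588735-10602216). In CKp25 2wk it was 15599 bases, on chromosome 18. The long CKp25 6wk peak on chromosome 17 overlapped a peak in each list, with −log10 p of 19.9 in CK 2wk, 35.6 in CKp25 2wk, 26.2 in CK 6wk and 36.9 in CKp25 6wk. Each of the 4 longest peaks likewise overlapped a peak in the other 3 lists.

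Fold enrichment within each list grew with width. The median fold of strong peaks was 3.22 in CK 2wk, 3.30 in CKp25 2wk, 3.09 in CK 6wk and 3.12 in CKp25 6wk. In CK 2wk it went from 2.86 for peaks under 500 bases to 5.72 for peaks of 2 to 5 kb and 7.09 for those of 5 kb or more. In CKp25 2wk the same classes had 2.97, 6.23 and 7.63, in CK 6wk 2.78, 5.28 and 6.28, and in CKp25 6wk 2.86, 5.64 and 6.95. The order of the width classes was the same in the 4 lists.

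The strongest H3K27ac peaks were common to the 4 lists. All 1000 of the strongest peaks of each list overlapped a peak in the other 3, as did 19949, 19943, 19946 and 19907 of the 20000 strongest in CK 2wk, CKp25 2wk, CK 6wk and CKp25 6wk. The peak at chr5:143667926-143672116 was the strongest of CK 2wk, CK 6wk and CKp25 6wk, with −log10 p of 150, 125 and 135. In CKp25 2wk it had 132, and the strongest peak there was chr1:64168299-64169580, with 162 against 133 in CK 2wk, 113 in CK 6wk and 118 in CKp25 6wk. A further peak among the strongest of CK 2wk, CK 6wk and CKp25 6wk, chr6:86476169-86478286, had 137, 130, 121 and 131 in the order CK 2wk, CKp25 2wk, CK 6wk and CKp25 6wk. These 3 places also carried H3K4me3 in each group, with −log10 p between 307 and 463, and no H3K27me3 peak, so the top of the H3K27ac lists was promoter-like.

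The peaks were spread over the autosomes in nearly the same proportions in each list. Chromosome 11 was the densest, with 64.4, 67.0, 58.5 and 67.7 strong peaks per Mb in CK 2wk, CKp25 2wk, CK 6wk and CKp25 6wk. Chromosome 3 was the sparsest, with 29.7, 30.6, 26.4 and 31.1. Densities used the span between the first and last deposited peak of any of the 7 marks on a chromosome. Summed over the 19 autosomes, the absolute differences in a chromosome's share of strong peaks came to 1.17 percentage points between CKp25 and CK at 2 weeks, 1.39 at 6 weeks and 0.896 between the CK lists. The genotype sums were thus slightly above the background one, and no chromosome differed by more than 0.205 points in any of these comparisons.

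In percentage points, chromosome 12 had the largest difference downward at both times, −0.151 at 2 weeks and −0.174 at 6 weeks. The largest difference upward was on chromosome 6 at 2 weeks, 0.205 points, and on chromosome 2 at 6 weeks, 0.176. Chromosome 6 had a difference of −0.0026 points at 6 weeks, so its gap at 2 weeks did not recur. The shares of chromosomes 1, 2 and 10 were higher in CKp25 at both times, those of 8, 9, 12, 14, 16 and 19 lower at both, and those of the other 10 autosomes differed in opposite directions.

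Strong peaks lay in denser runs in CKp25. When strong autosomal peaks at most 10 kb apart were joined, clusters of at least 5 peaks held 58.3% of peaks in CK 2wk (interval 57.9 to 58.6) and 59.7% in CKp25 2wk (59.4 to 60.0). They held 55.4% in CK 6wk (55.1 to 55.8) and 60.6% in CKp25 6wk (60.3 to 60.9). CKp25 minus CK was 1.42 points at 2 weeks and 5.19 at 6 weeks, and CK 6wk minus CK 2wk was −2.80, which is larger in size than the genotype difference at 2 weeks. The median gap between neighbours was 2165 bases in CK 2wk, 1917 in CKp25 2wk, 2402 in CK 6wk and 1864 in CKp25 6wk. Longer lists also have closer neighbours, and the part of list length in these differences was not tested. In the 20000 strongest peaks of every list the genotypes differed by 0.224 points at 2 weeks and 0.138 at 6 weeks. That setting changes the strength of the peaks as well as their number. At a −log10 p of at least 10 the differences were 1.32 and 4.22 points.

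The largest clusters were shared between lists. A cluster at chr14:64741167-65078409 held 159 strong peaks and 186499 strong bases in CK 2wk, with 165466 strong bases in the same span in CKp25 2wk, 176423 in CK 6wk and 168882 in CKp25 6wk. A cluster at chr8:122774321-123123332 held 186154, 164971, 166628 and 173794 strong bases in CK 2wk, CKp25 2wk, CK 6wk and CKp25 6wk. A cluster at chr9:45237395-45521647 held 143108, 120598, 127689 and 122532. The largest cluster of CKp25 2wk, on chromosome 18, held 186745, 190709, 182889 and 181390. One at chr2:30442090-30701864 held 113630, 110024, 109195 and 115304, and one at chr7:139847119-140015020 held 108014, 108393, 107426 and 110204. The list with the most acetylated bases was CK 2wk in the first 3 of these, CKp25 2wk in the chromosome 18 cluster and CKp25 6wk in the last 2.

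When each list was set against its counterpart peak by peak, the share of peaks missing from the other list was lower the stronger the peak. A peak was called absent from another list when no deposited peak of any strength overlapped it by 1 base. Of the strong peaks of CKp25 2wk, 18112 (17.8%) were absent from CK 2wk, and 18444 (18.8%) of those of CK 2wk were absent from CKp25 2wk. Of the strong peaks of CKp25 6wk, 26451 (25.5%) were absent from CK 6wk, and 15352 (17.3%) of those of CK 6wk were absent from CKp25 6wk. The background was of the same order: 20311 (20.7%) of the strong peaks of CK 2wk were absent from CK 6wk and 12016 (13.5%) the other way. Between the CKp25 lists, 18000 (17.7%) of the strong peaks of CKp25 2wk were absent from CKp25 6wk and 20378 (19.7%) the other way. Among the genotype comparisons only the share of CKp25 6wk was above every background share, and its counterpart CK 6wk was the shortest list.

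At a −log10 p of at least 10, absence was rare. It came to 761 peaks (2.02%) of CKp25 2wk, 598 (1.63%) of CK 2wk, 1103 (3.16%) of CKp25 6wk and 404 (1.3%) of CK 6wk, each against the other genotype at the same time. The background counts were 701 (1.91%) of CK 2wk and 201 (0.648%) of CK 6wk, and 540 (1.43%) of CKp25 2wk and 366 (1.05%) of CKp25 6wk, each against the same genotype at the other time. At this threshold the CKp25 share was above the CK share at both times. At 20 or more, 7 of 15538 peaks of CKp25 2wk, 0 of 15254 of CK 2wk, 12 of 14607 of CKp25 6wk and 2 of 12981 of CK 6wk were absent.

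**Figure D2:**
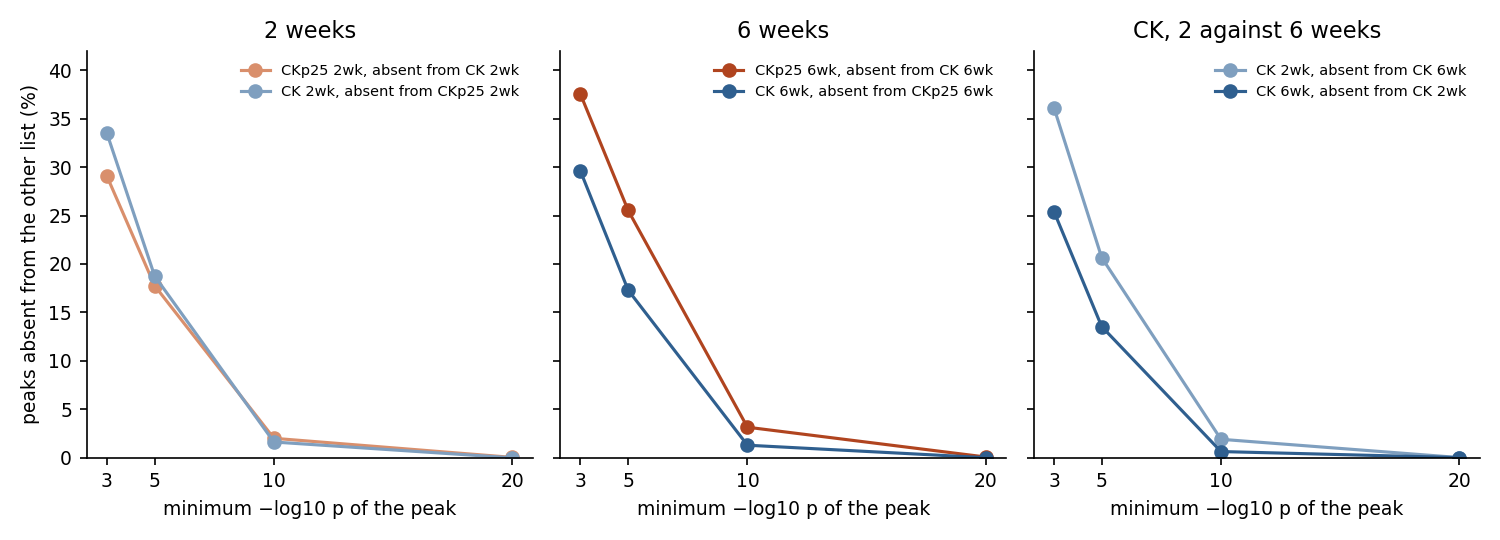
Percent of H3K27ac peaks (vertical axis) that no deposited peak of the other list overlapped, by the minimum −log10 p of the peak (horizontal axis, points at 3, 5, 10 and 20), for CKp25 against CK at 2 weeks (left), at 6 weeks (middle) and CK 2wk against CK 6wk (right). The lines go from 25.4 to 37.5% at 3 to less than 0.1% at 20, and at 10 the background lines reach 1.91% and the genotype lines 3.16%.

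Absent peaks were narrow and often lacked H3K4me3. Their median width was 350 bases in CKp25 2wk, 382 in CK 2wk, 383 in CKp25 6wk and 392 in CK 6wk. An H3K4me3 peak of the same group overlapped 27.5% of the absent peaks of CKp25 2wk, against 58.2% of all its strong peaks. The corresponding shares were 19.7 and 54.1% in CK 2wk, 32.7 and 58.9% in CKp25 6wk, and 23.8 and 60.9% in CK 6wk. Absent CKp25 peaks thus overlapped an H3K4me3 peak more often than absent CK peaks at both times. The H3K4me3 list was also longer in CKp25, with 89350 peaks against 75489 at 2 weeks and 88299 against 83033 at 6 weeks. The part of this in the difference was not tested. Over all strong peaks the share with H3K4me3 was 4.13 points higher in CKp25 than CK at 2 weeks and differed by −2.03 points at 6 weeks.

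Enhancer-like peaks, with H3K4me1 and no H3K4me3 in the same group, made up 38.8% of the absent peaks of CKp25 2wk, 44.7% of those of CK 2wk, 36.0% of those of CKp25 6wk and 43.4% of those of CK 6wk. This was 10.6, 13.2, 11.1 and 18.0 points above the peaks present in both genotypes. Absent peaks were also narrower, and the part of width in this excess was not tested. The excess was −0.0560, 0.460, 2.24 and 6.99 points when a mark had to cover 50% of the peak, a rule that also changes how wide peaks are classed. Under that rule CK 6wk had the largest excess. Peaks with neither mark made up 33.7, 35.6, 31.3 and 32.8% of the absent peaks in CKp25 2wk, CK 2wk, CKp25 6wk and CK 6wk.

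The 4 lists were next merged into 142004 regions with a strong peak in at least 1 list, of which 61865 (43.6%) overlapped a deposited peak in every list. Regions strong in both CKp25 lists and without any peak in either CK list numbered 2520, or 1.77% of all regions. The reverse, strong in both CK lists and without a peak in either CKp25 list, numbered 1335 (0.94%). Regions held by both 2-week lists alone numbered 1323 (0.932%) and by both 6-week lists alone 776 (0.546%). Regions of CKp25 alone were the most numerous class, whereas those of CK alone were about as many as those of the 2-week lists alone. The CKp25 lists also held the most strong peaks, 101979 and 103637, and CK 6wk the fewest, 88748. The part of list length in these counts was not tested.

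Relative to the other classes, CKp25 alone was larger still among stronger regions. At a −log10 p of at least 10, 56 of 45944 regions (0.122%) were held by CKp25 alone, 5 (0.0109%) by CK alone, 7 (0.0152%) by the 2-week lists alone and 6 (0.0131%) by the 6-week lists alone. At 20 or more, 2 of 18047 regions (0.0111%) were held by CKp25 alone, 0 (0%) by CK alone, 0 by the 2-week lists alone and 1 (0.00554%) by the 6-week lists alone. Of all regions at 10 and at 20, 20716 (45.1%) and 10153 (56.3%) were strong at that threshold in all 4 lists. Of the regions gained at 2 weeks at the lower threshold, 15841, and at 6 weeks, 23476, the 2520 gained at both made up 15.9 and 10.7%. Of those lost at 2 weeks, 16576, and at 6 weeks, 13389, the 1335 lost at both made up 8.05 and 9.97%. Over all 142004 regions, 11.2% were gained at 2 weeks and 16.5% at 6 weeks, and 11.7% were lost at 2 weeks and 9.43% at 6 weeks. At this threshold a region gained or lost at 1 time was gained or lost at the other no more often than regions in general. A region enters the set through a strong peak in any 1 list, and regions that entered through 1 list alone raise the shares over all regions. These shares are therefore not a neutral rate, and the comparison cannot show whether differences recur. At 10 or more, 56 of the 657 regions gained at 2 weeks (8.52%) were also gained at 6 weeks, against 2.00% of all 45944. Of the 501 lost at 2 weeks, 5 (0.998%) were also lost at 6 weeks, against 0.716% of all. Most regions gained or lost by these calls at 1 time were thus not called so at the other. The calls need a peak above the threshold in 1 genotype and no peak in the other. A smaller difference in the same direction did not count. The CK 2wk and CK 6wk lists each entered 1 of the 2 comparisons, so these overlaps share no list.

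**Figure D3:**
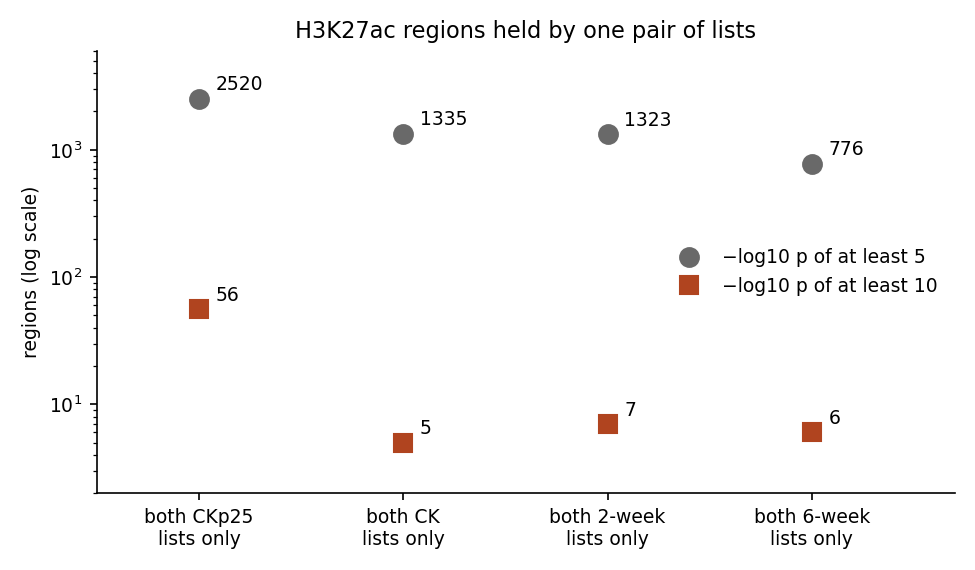
Number of H3K27ac regions (log scale) held by 1 pair of lists and without any deposited peak in the other pair, at a −log10 p of at least 5 (circles) and at least 10 (squares). Regions of both CKp25 lists are the most numerous at both thresholds, with 2520 and 56.

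The region of CKp25 alone with the best lower −log10 p outside the start of chromosome 9 was chr5:101064226-101067176, a stretch of 2951 bases. It had no H3K27ac peak in CK 2wk or CK 6wk, and −log10 p of 24.7 (6.23-fold over the extract) in CKp25 2wk and 20.3 (5.40-fold) in CKp25 6wk. H3K4me1 was called there in every group, with −log10 p of 6.69 in CK 2wk, 9.37 in CKp25 2wk, 7.13 in CK 6wk and 14.2 in CKp25 6wk. H3K4me3 was not called in CK 2wk and had 8.61 in CKp25 2wk, 4.80 in CK 6wk and 13.2 in CKp25 6wk. The place thus had an H3K4me1 peak in both CK lists, while an H3K27ac peak was called in the CKp25 lists alone.

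Most other leading regions of CKp25 alone carried H3K4me3 at least in CKp25. At chr2:173043864-173045280 H3K27ac had −log10 p of 12.9 in CKp25 2wk and 26.9 in CKp25 6wk, and H3K4me3 had 7.94 in CK 2wk, 16.3 in CKp25 2wk, 3.48 in CK 6wk and 56.0 in CKp25 6wk. H3K27me3 was called there in CK 2wk (3.37) and CK 6wk (3.62) and in neither CKp25 list. At chr19:34682361-34683436 H3K27ac had 13.2 and 18.5 in CKp25 2wk and CKp25 6wk, and H3K4me3 had 9.22, 64.1, 14.9 and 123 in CK 2wk, CKp25 2wk, CK 6wk and CKp25 6wk. H3K4me3 was called in every group at both of these places.

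At chr13:49337291-49338289 H3K27ac had 15.1 in CKp25 2wk and 14.2 in CKp25 6wk, and H3K4me3 was called in CKp25 alone, with 4.18 and 15.3. At chr11:82891826-82892578 H3K27ac had 19.7 and 14.1, H3K4me3 had 4.18 and 13.3, and H3K4me1 had 4.45 and 9.52, and none of the 3 was called in either CK list. This was the only one of the 10 leading regions where all 3 marks were called in both CKp25 lists and in no CK list. At chr12:104574911-104576536 H3K27ac had 12.2 and 14.2, and H3K4me3 had 6.12, 12.6, 6.63 and 26.9 in CK 2wk, CKp25 2wk, CK 6wk and CKp25 6wk.

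The remaining leading regions were more mixed. At chr17:35136365-35137279 H3K27ac had 12.2 in CKp25 2wk and 15.7 in CKp25 6wk, while H3K4me3 was called in every group, with 9.92 in CK 2wk, 233 in CKp25 2wk, 320 in CK 6wk and 298 in CKp25 6wk. At chr10:58726627-58727636 H3K27ac had 11.5 and 13.7, with no H3K4me3 peak in any group and H3K4me1 in both 6-week lists (4.53 in CK and 9.18 in CKp25). A region of 259 bases on chromosome 18 had 18.7 and 16.1 and carried H3K4me3 in every group, between 15.5 and 20.6.

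The first of the 10, chr9:3018746-3019052, was 307 bases long and had −log10 p of 24.1 in CKp25 2wk and 28.7 in CKp25 6wk. It lay in the first 50 kb of called sequence on chromosome 9, where the lists of all 7 marks held peaks, H3K9me3 among them with 20, 18, 25 and 21 peaks in CK 2wk, CKp25 2wk, CK 6wk and CKp25 6wk. H3K27ac had 6, 10, 19 and 22 peaks there. Active and repressive marks shared this stretch in every group. It held 1 of the 56 stronger regions of CKp25 alone and 5 of the 6 stronger regions of the 6-week lists alone.

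The leading region of CK alone, chr14:31332125-31332925, had −log10 p of 11.4 (3.93-fold) in CK 2wk and 13.0 (4.07-fold) in CK 6wk and no peak in either CKp25 list. H3K4me1 was called there in every group, with 11.6 in CK 2wk, 8.45 in CKp25 2wk, 10.8 in CK 6wk and 10.4 in CKp25 6wk, and H3K4me3 in none. The next, chr9:27324562-27325206, had 11.4 and 11.5 and neither H3K4me1 nor H3K4me3 in any group. At chr3:132513180-132514046 H3K27ac had 10.7 and 11.6 and H3K4me1 was called in CK 2wk alone (6.69).

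Of the 10 leading regions of CK alone, 2 had an H3K4me3 peak in every group. One was chr15:83197185-83197616, with H3K27ac of 13.4 in CK 2wk and 10.4 in CK 6wk and H3K4me3 of 104, 121, 129 and 146 in CK 2wk, CKp25 2wk, CK 6wk and CKp25 6wk. The other was chr10:59236376-59236835, with H3K27ac of 10.1 and 10.3 and H3K4me3 of 17.3, 9.88, 13.3 and 11.8. At chr11:44791658-44792903 H3K27ac had 9.45 and 9.62. H3K4me1 there had 6.15 in CK 2wk, 5.94 in CKp25 2wk and 10.8 in CK 6wk, H3K4me3 had 3.43, 6.11 and 10.4, and neither was called in CKp25 6wk. None of the 10 leading regions of CK alone carried an H3K27me3 peak in any group.

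Some strong absences at 1 time did not recur at the other. At chr7:20408167-20409701 H3K27ac had −log10 p of 35.2 in CKp25 6wk, none in CK 6wk, 7.65 in CK 2wk and 12 in CKp25 2wk. H3K4me3 there had 22.5 in CK 2wk, 43.3 in CKp25 2wk, 30.4 in CK 6wk and 120 in CKp25 6wk. H3K27me3 had 12.9, 9.25 and 18.4 in the first 3 of these groups and was not called in CKp25 6wk. At chr12:109241141-109242093 H3K27ac had 26.7 in CK 2wk, 9.55 in CKp25 2wk, 17.2 in CK 6wk and none in CKp25 6wk, and H3K27me3 was called at 3.37, 5.55 and 9.58 in CK 2wk, CKp25 2wk and CKp25 6wk. Over the 10 strongest absences at 6 weeks, 5 in each direction, H3K27me3 was called only in the group that lacked H3K27ac at 4 places, only in the group that had it at 0, in both groups at 1 and in neither at 5. At 2 weeks the same counts were 0, 0, 3 and 7. The places with H3K27me3 in both groups lay at the start of chromosome 9. These few places were picked by rank, and differences over whole classes were small. H3K27me3 was called at 8.97% of all regions of CKp25 alone in CK 6wk and 6.67% in CKp25 6wk. At all regions of CK alone it was called at 2.77% in CK 6wk and 3.67% in CKp25 6wk.

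H3K4me1, called from separate immunoprecipitations, differed in the direction of H3K27ac in both genotype classes at both times. An H3K4me1 peak overlapped 46.4% of the regions of CKp25 alone in CK 2wk (interval 44.4 to 48.3), 63.3% in CKp25 2wk (61.4 to 65.2), 45.4% in CK 6wk (43.4 to 47.3) and 66.6% in CKp25 6wk (64.7 to 68.4). At the regions of CK alone the order was the reverse, with 69.1% in CK 2wk (66.5 to 71.5), 54.8% in CKp25 2wk (52.2 to 57.5), 68.0% in CK 6wk (65.5 to 70.5) and 46.3% in CKp25 6wk (43.6 to 49.0). At the 43266 regions strong in all 4 lists, 30.5% of the total, the shares were 92.6, 91.7, 92.0 and 92.1%. Those shares lay close together, between 91.7 and 92.6%. The time classes showed a match as well. In the order CK 2wk, CKp25 2wk, CK 6wk and CKp25 6wk, H3K4me1 overlapped 71.6, 69.4, 65.4 and 58.5% of regions of the 2-week lists alone. At those of the 6-week lists alone the shares were 57.2, 57.6, 64.4 and 64.7%. The match was thus not confined to the genotype classes. The marks of a group share their whole cell extract as the control of the peak calling, and the part of this in the match was not tested.

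H3K4me3 went with H3K27ac at the regions of CKp25 alone: it was called at 25% in CK 2wk, 37.8% in CKp25 2wk, 28.1% in CK 6wk and 47.0% in CKp25 6wk. At the regions of CK alone it was called at 23.0, 24.3, 27 and 20.1% in CK 2wk, CKp25 2wk, CK 6wk and CKp25 6wk, so CK had the higher share in that class at 6 weeks and the lower one at 2 weeks. The H3K4me3 lists themselves held 75489, 89350, 83033 and 88299 peaks in the same order, so CKp25 had the longer list at both times. H3K27me3 was called at 7.78% of the regions of CKp25 alone in CK 2wk, 5.40% in CKp25 2wk, 8.97% in CK 6wk and 6.67% in CKp25 6wk. At the regions of CK alone its shares were 2.17, 1.72, 2.77 and 3.67%, and at the regions strong in all 4 lists 7.65, 6.43, 8.89 and 10.3%. The H3K27me3 lists held 115841, 76621, 119727 and 104196 peaks in the same order, and the part of their lengths in these shares was not tested.

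**Figure D4:**
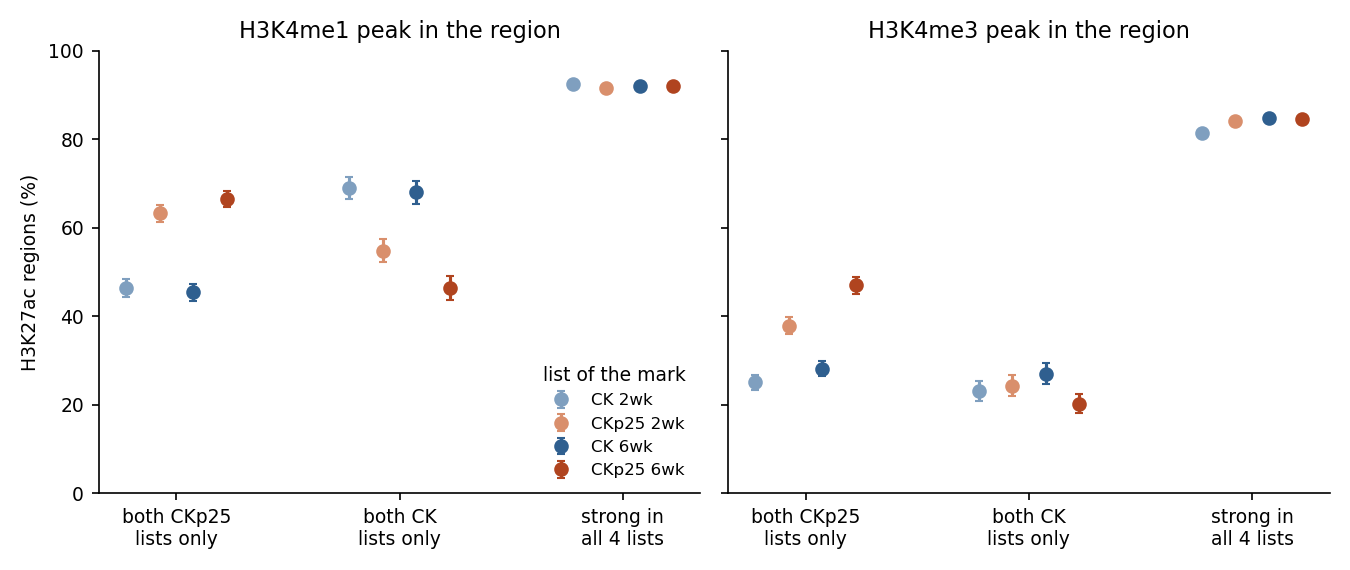
Percent of H3K27ac regions (vertical axis) overlapped by a peak of H3K4me1 (left) or H3K4me3 (right) in each of the 4 groups (colours), for regions of both CKp25 lists only, of both CK lists only and strong in all 4 lists. Points are shares and bars their 95% Wilson intervals. At regions of CKp25 alone both CKp25 points lie above both CK points for both marks, and H3K4me1 has the reverse order at regions of CK alone.

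Regions of CKp25 alone formed the most groups of near neighbours, and they were also the largest of the genotype and time classes. Groups of at least 3 within 10 kb of each other numbered 45 among regions of CKp25 alone, 4 among those of CK alone, 0 among those of the 2-week lists alone and 1 among those of the 6-week lists alone. The classes held 2520, 1335, 1323 and 776 regions in the same order, and the part of size in this count was not tested. The largest group had 8 regions and lay in the 6-week class, against 7 in that of CKp25 alone. Of 2338 windows of 1 Mb that held a region, 102 held 5 or more of CKp25 alone and 17 held 5 or more of CK alone. The same count was 11 for the 2-week lists alone and 2 for the 6-week lists alone. The fullest were chr1:173000001-174000000, chr2:27000001-28000000 and chr4:47000001-48000000, each with 10 of CKp25 alone, among 94, 154 and 111 regions, and 1 of CK alone. At chr11:35000001-36000000, 8 of 172 regions were of CK alone and 0 of CKp25 alone.

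Within long acetylated stretches the genotype difference recurred at both times more often than it turned. Strong peaks of the 4 lists joined over 10 kb gave 4542 autosomal clusters with at least 5 kb of strong bases in some list. CKp25 had more strong bases than CK at both times in 1685 of them, fewer at both in 1232 and opposite differences in 1621. With a difference of at least 2 kb each time, 489 clusters (10.8%) had more in CKp25 at both times, 344 (7.57%) fewer at both and 192 (4.23%) opposite differences. The order of more and fewer turned in the 20000 strongest peaks of each list, with 150 more and 176 fewer, and with all deposited peaks counted there were 457 and 440. At 2 weeks alone, 624 clusters (13.7%) had at least 2 kb more and 1054 (23.2%) at least 2 kb less in CKp25. At 6 weeks, 1616 (35.6%) had more and 533 (11.7%) less. CK 6wk had at least 2 kb less than CK 2wk in 1285 (28.3%) and more in 123 (2.71%), so the direction of single comparisons followed the coverage of the lists.

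**Figure D5:**
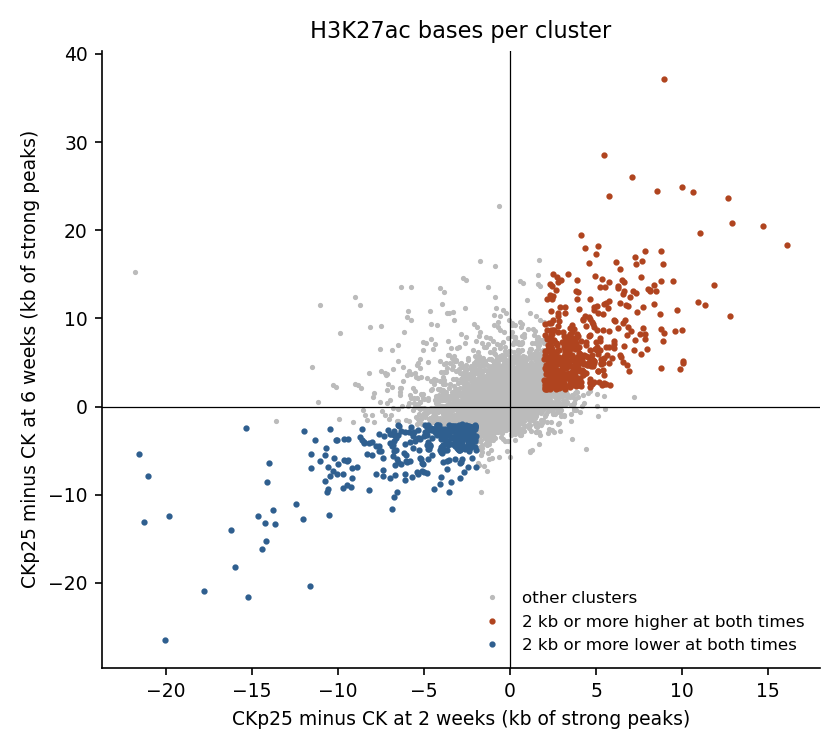
Difference in strong H3K27ac bases, CKp25 minus CK, at 2 weeks (horizontal axis, kb) and at 6 weeks (vertical axis, kb), 1 point for each of 4542 clusters. Coloured points differ by at least 2 kb in the same direction at both times, 489 higher and 344 lower, and grey points are the others.

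The clusters named next are those with the largest difference at both times, chosen after their values were seen unless they were also among the 5 largest of a time. At chr9:119908570-119992794 strong peaks covered 9871 bases in CK 2wk, 25985 in CKp25 2wk, 9000 in CK 6wk and 27287 in CKp25 6wk. H3K4me3 covered 4240, 10127, 6474 and 11608 bases of it in the same order. H3K4me1 covered 12797, 13691, 9411 and 15755 bases, with little difference at 2 weeks. H3K27me3 covered 261, 0, 285 and 942 bases, lower in CKp25 at 2 weeks and higher at 6 weeks. At chr9:116024153-116092499 strong H3K27ac covered 5399, 18296, 4303 and 25132 bases, and H3K4me1 covered 12674, 20197, 12109 and 29749. In both stretches each CKp25 list had more than 2 times the strong H3K27ac bases of each CK list.

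At chr3:104795100-104862487 strong H3K27ac covered 21677 bases in CK 2wk, 36381 in CKp25 2wk, 17095 in CK 6wk and 37591 in CKp25 6wk, and H3K4me1 covered 20806, 31024, 20325 and 36729. At chr17:84424786-84526323 it covered 26433, 39125, 22418 and 46104 bases, while H3K27me3 covered 1506, 639, 3289 and 488. At chr7:149554485-149590131 it covered 8400, 20277, 7702 and 21515. In all of these the CK lists of the 2 times were closer to each other than to either CKp25 list. Choosing clusters by their genotype difference at both times favours this order.

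The clusters with fewer acetylated bases in CKp25 follow. At chr16:34078237-34542145, a span of 463909 bases, strong H3K27ac covered 130994 bases in CK 2wk, 110947 in CKp25 2wk, 112497 in CK 6wk and 86043 in CKp25 6wk. H3K4me1 covered 196708, 171592, 191715 and 134088 bases there. At chr11:56940166-57064436 H3K27ac covered 32247, 14451, 31844 and 10956, and H3K4me1 covered 37202, 29970, 36375 and 20012. At chr16:9701473-9865080 H3K27ac covered 41681, 26466, 38047 and 16455, and H3K4me3 covered 6322, 7024, 8433 and 1711. At each of these 3 places CKp25 6wk had the fewest H3K27ac bases of the 4 lists.

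Over all such clusters, H3K4me1 differed in the direction of H3K27ac at both times, and the other marks given here in part. Of the 489 clusters with more H3K27ac in CKp25 at both times, 445 had more H3K4me1 bases in CKp25 at 2 weeks and 450 at 6 weeks. Of the 344 with fewer, 302 had fewer H3K4me1 bases in CKp25 at 2 weeks and 324 at 6 weeks. Over all 4542 clusters H3K4me1 bases were higher in CKp25 in 52.0% at 2 weeks and 52.4% at 6 weeks.

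H3K4me3 bases were higher in CKp25 in 444 of the 489 clusters at 2 weeks and 457 at 6 weeks, against 77.0 and 64.0% of all clusters. Of the 344 clusters with fewer acetylated bases, H3K4me3 bases were lower in CKp25 in 101 at 2 weeks and 275 at 6 weeks, against 22.3 and 35.5% of all clusters. At 2 weeks most of these 344 clusters went the other way, with higher H3K4me3 bases in CKp25 in 238 (69.2%). Relative to all clusters, the match of H3K4me3 to lower H3K27ac was thus clear at 6 weeks and slight at 2 weeks. H3K27me3 bases were often absent from these clusters. At 2 weeks they were lower in CKp25 in 170 and higher in 45 of the 489, and lower in 55 and higher in 59 of the 344, against lower in 20.2% and higher in 11.4% of all clusters. At 6 weeks they were lower in 170 and higher in 71 of the 489, and lower in 20 and higher in 148 of the 344, against lower in 14.8% and higher in 24.3% of all clusters.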

How the data were processed

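The authors deposited 1 peak list for each of 7 histone marks in each group, in mm9 coordinates. MACS2, Bowtie, Picard and HTSeq 0.6.1, and the builds mm9 and NCBIM37, are named without roles in the submitters' processing notes. The authors called each list against the whole cell extract of its group, per the file names. Each deposited peak has a fold enrichment, a ratio to the extract, and a −log10 p-value, all above 2. The q-value column held −1 throughout. Sequencing depth and pooling of animals are not given in the sources used here. The RNA table (12 columns of samples) was not analysed here.

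Lists were read, merged and intersected in Python 3.11.15 with numpy 2.4.6 and pandas 2.3.3, with intervals from scipy 1.17.1, and the overlap code was tested on simulated peaks. Coordinates are printed 1-based. Presence needed an overlap of 1 base with a deposited peak of any strength. Autosomal clusters joined strong peaks at most 10 kb apart. Neither genes nor sequences are given for peaks, since no genome of that build was used. Regions were named by rank: the 10 with the highest lower −log10 p of both lists in each genotype class, the 5 strongest absent peaks per direction, the 3 strongest and 3 longest peaks and 5 largest clusters per list, and the 5 clusters with the largest difference per direction, with some left out of the text. The lists and rules were chosen with earlier results of these data known. Alternatives changed the threshold, merging, overlap, joining distance and list length.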

Additional observations from a re-analysis of the deposited data

Results flagged for a closer look

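Several H3K27ac measures differed between CKp25 and CK in opposite directions at 2 and 6 weeks, with 1 list per group, so the difference between times was not tested. CKp25 minus CK was −5262 deposited peaks at 2 weeks and 17736 at 6 weeks. For bases covered by strong peaks it was −3.44 Mb and 10.4 Mb, and for bases covered by all deposited peaks −8.25 Mb and 10.2 Mb. For strong peaks of 5 kb or more it was −52 and 53. The CK 6wk list was the shortest, and its part in these differences was not tested.

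The share of strong peaks with H3K4me3 differed by 4.13 points at 2 weeks and −2.03 at 6 weeks, and the share with neither H3K4me3 nor H3K4me1 by −0.329 and 2.83 points. The share absent from the other genotype differed by −0.998 and 8.22 points. The share of autosomal peaks on chromosome 6 differed by 0.205 and −0.0026 points.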

How the results depend on the processing

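No paired analysis was possible because each group had 1 list and no test was made. The limits are those of single lists: the depth behind them is unknown, so a missing peak was not detectable in that list rather than shown to be absent, and weak peaks, which carry most differences, depend most on the threshold. Below, values follow the order 2 weeks, then 6 weeks, and within a time CKp25 before CK, unless stated. Unless the construction of an alternative shows it, the cause of a change was not tested. The alternative on q-values and the search of peak sequences were not run, for want of q-values and of a genome.

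The ratio of peak numbers at 2 weeks turned to 0.978 at a −log10 p of at least 3 and was 1.02 with peaks within 500 bases merged. At 6 weeks it was 1.12 at 3, 1.13 at 10 and 1.13 with merging. The difference in median width at 2 weeks was −25 bases at 3, −68 at 10 and −43 in the 20000 strongest peaks. At 6 weeks it was −20 at 3 and turned to 18 at 10 and 76 in the 20000 strongest. The ratio of covered bases was 0.931 at 2 weeks and 1.10 at 6 weeks at 3, and 1.05 at 6 weeks in the 20000 strongest. The ratio of median fold between peaks of 2 kb or more and those under 500 bases was 2.13, 2.04, 2.01 and 1.93 for strong peaks. It was 1.58, 1.51, 1.48 and 1.43 at 10 and 1.24, 1.24, 1.23 and 1.26 in the 20000 strongest. The summed difference in autosomal shares was 1.93 and 1.82 points at 10 and 2.40 and 1.69 in the 20000 strongest. The difference in peaks within clusters was 4.39 points at 6 weeks with 20 kb joining, 4.22 at 6 weeks at 10, and 0.224 and 0.138 in the 20000 strongest. Clusters with at least 2 kb more at both times numbered 275 at 10 and 150 in the 20000 strongest, and those with fewer 207 and 176, so that the order turned in the 20000 strongest. That setting, and one counting all deposited peaks (457 and 440), were chosen after seeing the data.

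Absent peaks numbered 45328, 53386, 58701 and 41349 at a −log10 p of at least 3, and 761, 598, 1103 and 404 at 10. In the 20000 strongest they numbered 18, 10, 67 and 32. With only strong peaks of the other list searched they numbered 30314 (CKp25 2wk), 29549 (CK 2wk), 39142 (CKp25 6wk) and 24117 (CK 6wk). With no peak within 500 bases they numbered 10869, 11389, 17474 and 9484. With 50% of the peak to be covered they numbered 26180 (CKp25 2wk), 28245 (CK 2wk), 36470 (CKp25 6wk) and 23099 (CK 6wk).

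Regions of CKp25 alone and of CK alone numbered 8550 and 6722 at 3, 56 and 5 at 10, and 3 and 0 in the 20000 strongest. They numbered 1625 and 888 with peaks merged over 500 bases, 1501 and 707 with no peak within 500 bases, and 6262 and 3843 with only strong peaks of the other lists searched. CKp25 alone was the larger class in each. Without the first 50 kb of chromosome 9, an alternative chosen after seeing the data, they numbered 2519 and 1335.

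The excess of enhancer-like peaks among absent peaks was −0.554, 2.84, 3.47 and 8.0 points with other marks at a −log10 p of at least 5, and −0.0560, 0.460, 2.24 and 6.99 with 50% of the peak covered. It was −1.75, 27.2, 16.6 and 38.4 in the 20000 strongest, which hold few absent peaks, and 2.24, 3.41, 4.25 and 9.27 at the middle base, an alternative chosen after seeing the data. With the CK lists of the other marks it was 4.38 in CKp25 2wk and 7.29 in CKp25 6wk. The difference in H3K4me1 at regions of CKp25 alone was 9.72 points at 2 weeks with H3K4me1 peaks at 5 or more, and 0 and 0 over the 3 regions in the 20000 strongest. At regions of CK alone the H3K4me1 difference lay between −22.7 and −14.2 points under every setting that gave a value.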
